A study of Homo sapiens and Mus musculus with 24 samples.

Results

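The Caco-2 line labelled DNMT3A2 was compared with wild-type (WT) Caco-2 cells by RNA-seq, to show which genes stayed or became different from the parental line. Of the 24 samples of the series, 8 belong to this comparison: 4 libraries whose genotype label gives the DNMT3A deletion together with DNMT3A2, and 4 labelled WT. All genes counted in these libraries were considered. Caco-2 cells derive from a human colorectal carcinoma and take on features of enterocytes in culture. The WT cells carry neither the deletion nor a transgene. The engineered cells began as ΔDNMT3A cells, in which DNMT3A had been targeted by CRISPR-Cas9. These cells received TY1-tagged DNMT3A2 in a piggyBac vector with a CMV promoter, were selected with puromycin and were expanded from a diluted clone. The line therefore carries the deletion, the isoform and the vector, and it is 1 clone, so an effect of the isoform, of the deletion and of the cloning cannot be told apart. Beside this comparison are set the values of ΔDNMT3A (4 libraries, deletion alone) and of DNMT3A1 (3 libraries, deletion with the longer isoform, 1 further library not analysed here), which are clones too. Per the paper, each isoform was put back into the ΔDNMT3A line, so the engineered lines share an origin and are not independent.

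Each library held stranded pairs of 75 bases from total RNA. Reads counted on genes ranged from 26653192 to 37799624 in WT (median 31549200) and from 22104408 to 31903940 in the line labelled DNMT3A2 (median 27294291). Levels are given as CPM, counts scaled to TMM library sizes, with SDs between libraries. Differences are log2 fold changes of the labelled line against WT with standard errors (SE) from edgeR's quasi-likelihood fit, and a gene rose or fell where its Benjamini-Hochberg adjusted p over all genes tested was under 0.05. No label says whether the 4 libraries of a line came from separate cultures. The p-values thus measure only the spread between libraries, which may be technical. In bulk RNA, fewer cells that express a gene and less of its RNA per cell cannot be told apart.

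DNMT3A and DNMT3B are the de novo DNA methyltransferases, which set new methyl groups on cytosines of CG dinucleotides, and DNMT1, guided by UHRF1, copies existing marks at replication. TET enzymes oxidise the mark and TDG then removes the base, while MBD proteins and the zinc finger proteins of the ZBTB family bind methylated DNA. DNMT3A2 is the shorter DNMT3A isoform, made from an internal promoter and lacking the amino-terminal part of DNMT3A1. Methylation of CG-rich promoters goes with silence of the gene, as on the inactive X chromosome, at imprinted loci and at many germline genes.

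DNMT3A (ENSG00000119772, chromosome 2 from 25227855 to 25342590, minus strand of GRCh38) was at 63.7, 62, 67.2 and 65.7 CPM in the 4 WT libraries and at 20.2, 22.3, 23.5 and 21.7 CPM in the 4 libraries of the labelled line. The groups lay far apart. Its log2 fold change was -1.57 (SE 0.043, adjusted p = 9.86e-24, quasi-likelihood F test of edgeR). ΔDNMT3A had 20.7 ± 1.22 CPM (SD, n = 4) and DNMT3A1 38 ± 1.23 CPM (SD, n = 3). Between the labelled line and ΔDNMT3A the log2 fold change was 0.07 (SE 0.057), short of the threshold with an adjusted p of 0.272 in the same edgeR test. Gene counts do not separate the edited gene from a reintroduced coding sequence, and no rise above ΔDNMT3A was detectable in the gene count, in which DNMT3A1 lay higher. By immunoblot, the paper found both isoforms re-expressed as protein, and by immunofluorescence it placed them in the nuclei. The gene counts alone do not show the isoform, so the cells are called the labelled line from here on. Every direction given below is that of the libraries labelled DNMT3A2.

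**Figure D1:**
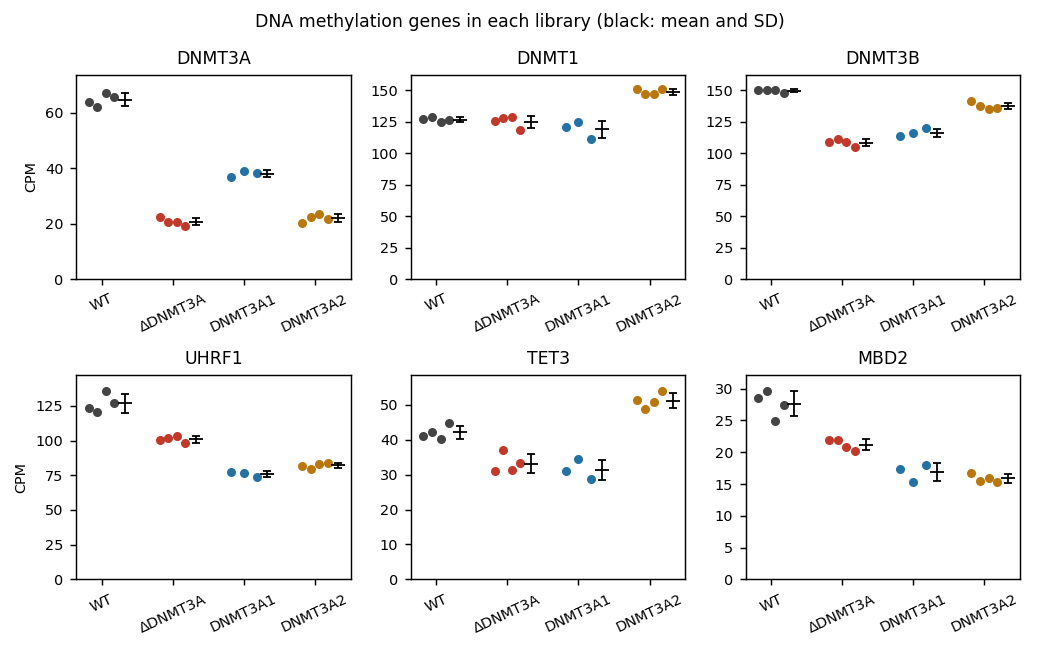
CPM (y axes, from 0) of DNMT3A and 5 other genes of the DNA methylation machinery in each Caco-2 library (points) of the 4 lines (x axes), with the mean and SD of each line in black. DNMT3A averaged 21.9 CPM in the libraries labelled DNMT3A2 and 20.7 CPM in ΔDNMT3A, against 64.6 in WT, and MBD2 was lower in every library of the 3 engineered lines than in WT.

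The methylation machinery moved in both directions. Of its 18 genes, DNMT3A included, 8 rose and 6 fell, where 34.3% of all genes tested rose and 34.4% fell. Among the methyltransferase genes, DNMT1 rose slightly, from 127 ± 1.61 CPM to 149 ± 2.36 CPM (SD, n = 4 each; log2 fold change 0.22), and DNMT3B fell from 149.6 ± 1.27 CPM to 137 ± 2.72 CPM (-0.14). Their WT and labelled-line ranges did not overlap. DNMT3B was lower still in ΔDNMT3A, at 108 CPM, and DNMT3A1, at 116 CPM. UHRF1, the partner of DNMT1, fell from 127 ± 6.6 to 82.3 ± 1.85 CPM (log2 fold change -0.64), whereas its relative UHRF2 rose (0.43). Of the enzymes that remove methylation, TET3 (0.27) and TDG (0.10) rose, and TET1 (-0.02) and TET2 (-0.10) did not pass the threshold. TDG lost the call under DESeq2 (adjusted p = 0.0604). It also lost the call with the GC trend removed (log2 fold change 0.031) and without the filter on low counts (0.092). The call was lost too without DNMT3A2 replicate 4 (0.095) or WT replicate 3 (0.078). With the GC trend removed TET1 (-0.092) and TET2 (-0.162) gained one, TET2 also with the length trend removed (-0.147), with at least 10 counts in all libraries (-0.104) and without WT replicate 1 (-0.123). The cofactor gene DNMT3L was near 0.67 CPM and did not pass either (0.34). Among the readers of the mark, MBD2, which recruits the NuRD corepressor, was at 28.6, 29.6, 24.9 and 27.4 CPM in WT and at 16.8, 15.5, 15.9 and 15.4 CPM in the labelled line. The groups did not overlap, and the log2 fold change was -0.81 (SE 0.056, adjusted p = 6.6e-14 from edgeR's test). ΔDNMT3A and DNMT3A1 were below WT too, at 21.2 and 16.9 CPM, and the 50 genes next to MBD2 had a median of 0.17. MBD3 fell (-0.28), while MBD1 (0.12), MBD4 (0.15), ZBTB33 (0.36) and ZBTB38 (0.58) rose. MBD1 lost the call without the filter on low counts (0.107, adjusted p = 0.0673, edgeR). ZBTB4 did not pass (0.09), but did with the GC trend removed (0.206). ZBTB38 was the member with the highest rise, from 127 ± 1.25 to 192 ± 5.44 CPM.

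Over the transcriptome, most genes differed between these clones. Of 16360 genes tested, 11234 (68.7%) passed the threshold, 5607 higher and 5627 lower in the labelled line. Most of the differences were small, with a median absolute log2 fold change of 0.391 among the genes that passed, and 1818 genes also reached an absolute log2 fold change of 1, of which 720 were higher and 1098 lower. At an absolute value of at least 3 stood 84 higher and 140 lower genes. For 10173 genes (62.2%) the ranges of the 4 labelled-line and the 4 WT libraries were separate, and 9960 of these genes passed. For 4848 genes (29.6%) they lay outside the range of all 11 other Caco-2 libraries, 2548 above (15.6%) and 2300 below (14.1%). Counts of list members given below are to be read against these shares. Beyond the genes fixed by rank or level within each list, some members are named for their role, and these were chosen after their values were seen.

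Log2 fold changes were ranked among genes with a symbol that passed with separate ranges and averaged at least 1 CPM over the 8 libraries. Genes below that mean, such as those switched on, were not ranked. Among the ranked genes, the 10 highest log2 fold changes belonged to CD24, KRT23, SLC39A2, NKX2-1, DPPA3P2, VCAN, DPPA3, LINC02384, PLA2G7 and TFPI. CD24, which encodes a small glycosylated surface protein found on many carcinomas and progenitor cells, was at 1.94, 1.85, 2.07 and 2.52 CPM in WT and at 84.3, 81.9, 82.8 and 84.3 CPM in the labelled line. The lowest library of the labelled line lay far above the highest of WT, with a log2 fold change of 5.28 (SE 0.082, adjusted p = 3.42e-33 from edgeR's test). It was at 3.37 ± 0.166 CPM in ΔDNMT3A and 7.33 ± 0.724 CPM in DNMT3A1 (SD, n = 4 and 3). The gene lies on chromosome 6 from 106969831 to 106975627. CD24 has near-identical pseudogene copies, so its counts are uncertain. KRT23, an epithelial type I keratin gene on chromosome 17 from 40922696 to 40937634, had 1.37, 0.616, 1.4 and 0.952 CPM in WT and 36.5, 39, 38.9 and 36.7 CPM in the labelled line (log2 fold change 5.09, SE 0.137, adjusted p = 1.04e-27, same test). The other lines were close to WT, with 2.03 CPM in ΔDNMT3A and 2.75 CPM in DNMT3A1. VCAN, the gene of the matrix proteoglycan versican, rose from 7.42 ± 0.688 to 191 ± 7.89 CPM (4.66), above all 11 other libraries, with 16.9 CPM in ΔDNMT3A and 53.9 CPM in DNMT3A1.

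NKX2-1, a transcription factor gene of lung and thyroid, was near the limit of detection in all other lines. It had 0.0598, 0.0725, 0.0957 and 0.206 CPM in WT and 3.36, 3.42, 3.22 and 3.44 CPM in the labelled line (log2 fold change 4.81, SE 0.379, adjusted p = 4.74e-17 from edgeR's test), against 0.0982 ± 0.0558 CPM in ΔDNMT3A and 0.261 ± 0.0583 CPM in DNMT3A1. DPPA3, which in early embryos protects DNA from loss of methylation and in other cells has been shown to bind UHRF1, rose from 0.98 ± 0.214 to 25.1 ± 1.17 CPM (4.66). It was also high in ΔDNMT3A (15.6 ± 1.02 CPM) and DNMT3A1 (19.3 ± 1.22 CPM), as was its copy DPPA3P2 (1.03 and 1.89 CPM against 0.0807 in WT and 2.5 in the labelled line). Reads of DPPA3 and DPPA3P2 may be shared. The remaining genes of these 10 were SLC39A2, a zinc transporter gene (4.89), LINC02384, a long noncoding RNA (4.59), PLA2G7, a secreted phospholipase gene (4.44), and TFPI, an inhibitor of blood coagulation (4.29). For PLA2G7 the level of DNMT3A1, 20.1 CPM, exceeded that of the labelled line, 8.59 CPM. TFPI was at 3.52 CPM in WT and between 38.6 and 69.2 CPM in the 3 engineered lines.

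At the other end stood genes that were close to silent in the labelled line. By the rule of at most 3 counts in each of its 4 libraries and a WT mean of at least 1 CPM, 24 genes were switched off, and by the mirrored rule 5 were switched on. These genes were chosen by their counts in this contrast, so their values describe them and test nothing. Of the 24 genes, 5 also had at most 3 counts in every ΔDNMT3A library and 6 in every DNMT3A1 library. Of the 5 genes switched on, 2 were at most at 3 counts in every ΔDNMT3A library and 1 in every DNMT3A1 library. Because no methylation was measured in these libraries, the reference promoters are shown for their CG content alone. Shown are the 250 bases before the RefSeq start of 3 genes switched off, 2 switched on and CD24, the highest of the ranked genes. They run 5′ to 3′ on the strand of the gene, with each CG dinucleotide in capitals (GRCh38.p14). The windows lie at chr9:135699482-135699731 (minus strand) for SOHLH1, chr7:95772304-95772553 (plus) for DYNC1I1, chr4:164383518-164383767 (minus) for MARCHF1, chr9:14322388-14322637 (minus) for NFIB, chr9:90642825-90643074 (minus) for DIRAS2 and chr6:106975628-106975877 (minus) for CD24.
SOHLH1: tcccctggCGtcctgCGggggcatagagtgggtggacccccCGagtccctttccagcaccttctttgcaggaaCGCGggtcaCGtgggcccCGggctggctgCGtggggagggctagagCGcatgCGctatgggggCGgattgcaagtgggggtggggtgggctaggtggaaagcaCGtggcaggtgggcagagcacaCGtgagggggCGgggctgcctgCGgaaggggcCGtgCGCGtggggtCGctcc
DYNC1I1: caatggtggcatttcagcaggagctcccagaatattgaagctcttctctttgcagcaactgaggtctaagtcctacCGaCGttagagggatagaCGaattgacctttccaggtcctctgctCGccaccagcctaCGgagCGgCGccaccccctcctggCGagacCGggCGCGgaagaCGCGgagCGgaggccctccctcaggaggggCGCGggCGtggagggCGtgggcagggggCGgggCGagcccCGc
MARCHF1: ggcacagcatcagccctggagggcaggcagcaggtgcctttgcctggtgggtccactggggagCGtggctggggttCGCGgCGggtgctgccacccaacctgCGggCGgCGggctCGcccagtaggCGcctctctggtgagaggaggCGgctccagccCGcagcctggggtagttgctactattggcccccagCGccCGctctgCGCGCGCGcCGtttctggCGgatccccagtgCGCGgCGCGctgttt
NFIB: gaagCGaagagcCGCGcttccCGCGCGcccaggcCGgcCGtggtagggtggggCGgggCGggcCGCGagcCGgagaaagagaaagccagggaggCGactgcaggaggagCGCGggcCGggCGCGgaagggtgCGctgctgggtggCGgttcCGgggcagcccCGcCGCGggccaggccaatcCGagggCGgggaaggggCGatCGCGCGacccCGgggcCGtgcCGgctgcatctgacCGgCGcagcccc
DIRAS2: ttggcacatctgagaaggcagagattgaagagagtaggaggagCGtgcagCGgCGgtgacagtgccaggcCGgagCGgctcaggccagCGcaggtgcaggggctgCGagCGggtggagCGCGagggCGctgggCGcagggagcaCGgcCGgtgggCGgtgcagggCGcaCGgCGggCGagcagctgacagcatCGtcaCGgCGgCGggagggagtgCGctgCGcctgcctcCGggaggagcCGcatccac
CD24: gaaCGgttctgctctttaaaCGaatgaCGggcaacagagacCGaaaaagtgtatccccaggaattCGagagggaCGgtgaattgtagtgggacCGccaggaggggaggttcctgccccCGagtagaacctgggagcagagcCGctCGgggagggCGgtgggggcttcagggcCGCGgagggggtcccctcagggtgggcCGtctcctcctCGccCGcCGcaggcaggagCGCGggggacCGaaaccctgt

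These windows held 19, 21 and 23 CG dinucleotides for the 3 genes switched off and 36, 27 and 20 for the 3 that rose. Counted over 300 bases, with 50 after the start, the 16 switched-off genes with a promoter in the table had a median of 12 CG, and 56.2% of them had at least 10. The 3 switched-on genes with a promoter had a median of 30, and with a minimum mean of 0.5 CPM in place of 1 the 11 with a promoter had 8. Over the 11385 tested genes with a promoter the median was 26, and 86.5% had at least 10 CG, so the median of the switched-on genes changed sides with that minimum. By median, the promoters of the genes switched off thus held fewer CG than those of all tested genes, and that of ZNF736 held 9. The 3 printed for SOHLH1, DYNC1I1 and MARCHF1, with 25, 22 and 30 CG over 300 bases, lie above the median of that set.

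SOHLH1, a transcription factor gene of early germ cells, had 333, 294, 307 and 416 counts in the WT libraries, or 10.3 ± 0.471 CPM (SD, n = 4), and 0 counts in all 4 libraries of the labelled line, which made it at least 364-fold lower against a floor of 3 counts over the group. It had at most 2 counts in any ΔDNMT3A library and 0 in DNMT3A1. SYT13, a synaptotagmin gene of vesicle traffic, had 411, 332, 429 and 518 counts in WT and 0, 0, 2 and 1 in the labelled line. This is a ratio of 455 (95% counting interval from 155 to 2210). DYNC1I1, which encodes an intermediate chain of the dynein motor, had 636 counts in WT and 2 in the labelled line (ratio 257), and MARCHF1, a ubiquitin ligase gene that lowers surface MHC class II, had 613 and 3 (ratio 165). SOHLH1, SYT13, DYNC1I1 and MARCHF1 were also nearly silent in ΔDNMT3A, at most at 3 counts in any of its libraries. ZNF736, a zinc finger gene, fell from 1964 to 5 counts (ratio 317), with 0.946 CPM in ΔDNMT3A and 0.0566 CPM in DNMT3A1 against 15 in WT.

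SLC7A4, FRG1CP and CELF3 were expressed in every other line. SLC7A4, which belongs to the family of cationic amino acid transporters, had 2.4 ± 0.116 CPM in WT, 2.17 ± 0.294 CPM in DNMT3A1 and 3.93 ± 0.473 CPM in ΔDNMT3A, against 1 count in all 4 libraries of the labelled line (ratio to WT 255, 95% counting interval from 45.4 to 10100). FRG1CP, a transcribed pseudogene whose copies may share reads, had 584 counts in WT and 3 in the labelled line, with 5.36 CPM in ΔDNMT3A and 7.0 CPM in DNMT3A1. CELF3, a splicing regulator gene of neurons, had 2.66 CPM in WT, 0.489 CPM in DNMT3A1 and 1.23 CPM in ΔDNMT3A, and 3 counts in the labelled line. GNAS-AS1, the antisense RNA of the imprinted GNAS locus, named after its values were seen, had 131 counts in WT and 1 in the labelled line. SIGLEC6 (314 and 5 counts), a sialic acid-binding lectin gene, and CEACAM18 (244 and 6 counts), of the carcinoembryonic antigen family, completed the 10 highest WT levels of the genes switched off. DIAPH2, a formin gene of the actin skeleton on chromosome X, and CYP2W1, a cytochrome P450 gene of colon tumours, were not silent. They were among the 10 lowest log2 fold changes of the ranked genes, which averaged at least 1 CPM over the 8 libraries. DIAPH2 fell from 19.2 ± 0.903 to 0.156 ± 0.0614 CPM (-6.97), with 0.22 and 0.179 CPM in ΔDNMT3A and DNMT3A1. CYP2W1 fell from 34.8, 33.8, 35.4 and 33.4 CPM to 0.356, 0.277, 0.531 and 0.454 CPM. Its groups did not overlap, the log2 fold change was -6.37 (SE 0.194, adjusted p = 1.43e-29 from edgeR's test), and the other lines lay between, at 4.94 CPM in ΔDNMT3A and 1.31 CPM in DNMT3A1.

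The 5 genes switched on stayed low. DIRAS2, a small GTPase gene of the brain, had 2, 2, 0 and 0 counts in WT and 47, 56, 50 and 48 in the labelled line (ratio 62.2, 95% counting interval from 23.9 to 230.0). NFIB, a transcription factor gene of lung and brain, had 1 count in WT and 148 in the labelled line, SHISA6, which regulates AMPA receptors, 1 and 196, and AFF2, a gene of the long arm of chromosome X, 4 and 154. STK32A-AS1, an antisense RNA on chromosome 5, had 6 and 109. All 5 stood at or below 2.58 CPM in each library of the labelled line and at or below 0.511 CPM on average in ΔDNMT3A and DNMT3A1.

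**Figure D2:**
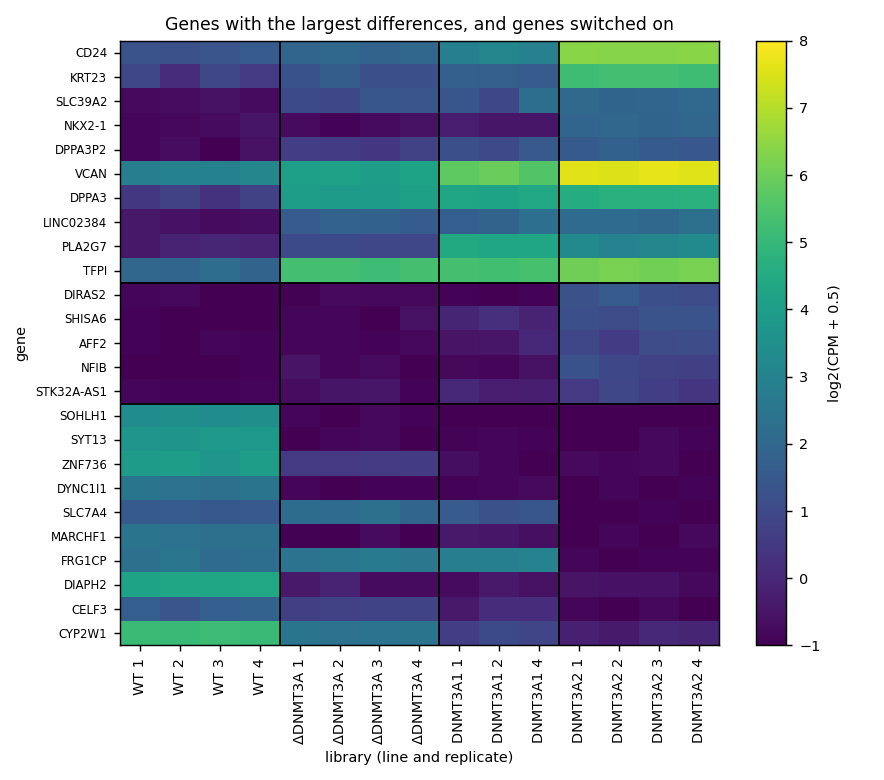
Heat map of log2(CPM + 0.5) (colour) in each of the 15 Caco-2 libraries (x axis) for the 10 genes with the highest log2 fold changes, the 5 genes switched on and the 10 with the lowest (y axis, from top to bottom). Highest and lowest were ranked among genes that averaged at least 1 CPM over the 8 libraries compared. The libraries of a line resemble each other, SOHLH1, SYT13, DYNC1I1 and MARCHF1 are dark in all 3 engineered lines, and CD24, KRT23 and NKX2-1 are brightest in the labelled line.

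On the scale of CPM, which is not per length, the largest gains were those of abundant transcripts. EEF1A1, the elongation factor that brings tRNAs to the ribosome, rose from 10650 ± 329.7 to 13890 ± 146 CPM (log2 fold change 0.37) and FN1, which encodes fibronectin, from 5596 ± 226 to 8465 ± 201 CPM (0.58). NPM1 (0.87), a nucleolar chaperone, RACK1 (0.54), a ribosomal scaffold, and HSPA8 (0.30), the constitutive heat shock protein, followed. The largest losses were those of MT-CO3 (-0.68), a mitochondrial gene of cytochrome oxidase, GLUD1 (-1.08), glutamate dehydrogenase, KRT8 (-0.32), the main type II keratin of simple epithelia, RRBP1 (-1.54), the ribosome-binding protein of the endoplasmic reticulum, and GAPDH (-0.26), of glycolysis. FN1 had 3977 ± 103 CPM in ΔDNMT3A, below WT, and 7129 ± 717 CPM in DNMT3A1. NPM1 and RACK1 lie on the long arm of chromosome 5, where neighbouring genes had medians of 0.45 and 0.46, and RRBP1 on chromosome 20, where they had -0.46. EEF1A1, NPM1, RACK1, HSPA8, KRT8 and GAPDH have many processed pseudogenes with which reads may be shared.

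Genes that interferons induce were lower in the labelled line, almost throughout. Interferon receptors signal through JAK kinases to STAT proteins and IRF9, which bind a repeated GAAA element, and cells keep a low tonic level of these genes without added interferon. Of 42 interferon-stimulated genes tested, 38 fell and 2 rose, with a median log2 fold change of -1.38 against -0.003 over all genes tested. For 28 of the 42 the labelled line lay below all 11 other libraries, a position held by 14.1% of all genes tested. Against ΔDNMT3A, 40 of 43 tested members were lower and 1 higher, where 34.1% of all genes tested were lower and 33.8% higher. Against DNMT3A1, 32 of 39 were lower and 3 higher, where 34.5% were lower and 33.9% higher. The group counts against the 3 lines share the libraries of the labelled line. Beside them, ΔDNMT3A against WT had 21 members higher and 11 lower of 43, and DNMT3A1 against WT 8 higher and 24 lower. No shares over all genes are given for the comparisons of ΔDNMT3A and DNMT3A1 with WT, so these counts are descriptions.

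MX1, a GTPase that blocks viral replication (chromosome 21 from 41420304 to 41459214), was at 9.17, 9.79, 9.12 and 11 CPM in WT and at 0.277, 0.185, 0.212 and 0.162 CPM in the labelled line. The ranges lay far apart, and the log2 fold change was -5.55 (SE 0.302, adjusted p = 8.34e-23 from edgeR's test), with 1.84 ± 0.0543 CPM in ΔDNMT3A and 0.876 ± 0.0727 CPM in DNMT3A1. XAF1 (175 and 6 counts), an antagonist of apoptosis inhibitors, was among the genes switched off. IFI6 fell from 23.8, 27, 26.9 and 26 CPM to 2.96, 2.63, 2.87 and 2.75 CPM. The mitochondrial protein that it encodes is a common marker of the response, and its log2 fold change was -3.22 (SE 0.087, adjusted p = 1.53e-25, same test). OAS3, which makes 2′,5′-linked oligoadenylates upon sensing double-stranded RNA, was at 46, 51.3, 52.9 and 53.5 CPM in WT and 5.69, 6.28, 6.34 and 5.87 CPM in the labelled line (-3.09, SE 0.067, adjusted p = 2.65e-27). OAS1 (-2.83), OAS2 (-2.4), IFIT1 (-3.01) and the RNA sensor IFIH1 (-3.33) fell as well, and so did the related sensor RIGI (-0.33). OAS1, OAS2 and OAS3 lie in a stretch of chromosome 12, from CORO1C to MMP17, whose 187 genes had a median of -0.313. BST2, the tetherin that holds budding virus at the surface, fell from 122 ± 3.98 to 28.2 ± 1.01 CPM (-2.13). In ΔDNMT3A, IFIH1 was at 10.3 ± 0.548 CPM and IFI6 at 36.4 ± 1.66 CPM, against 10.2 ± 0.543 and 25.9 ± 1.51 CPM in WT.

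The promoters of IFI6, OAS3 and BST2 show the element in sequence. In the 250 bases before the RefSeq start (GRCh38.p14, chr1:27672193-27672442 on the minus strand, chr12:112938224-112938473 on the plus strand and chr19:17405631-17405880 on the minus strand), the GAAA letters of each match to the motif (GAAA, any 2 bases, GAAA) are in capitals.
IFI6: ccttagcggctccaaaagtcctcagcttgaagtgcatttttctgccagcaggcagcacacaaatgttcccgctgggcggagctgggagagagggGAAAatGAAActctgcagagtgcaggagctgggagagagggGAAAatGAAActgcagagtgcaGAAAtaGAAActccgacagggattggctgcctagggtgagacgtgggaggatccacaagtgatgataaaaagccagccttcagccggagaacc
OAS3: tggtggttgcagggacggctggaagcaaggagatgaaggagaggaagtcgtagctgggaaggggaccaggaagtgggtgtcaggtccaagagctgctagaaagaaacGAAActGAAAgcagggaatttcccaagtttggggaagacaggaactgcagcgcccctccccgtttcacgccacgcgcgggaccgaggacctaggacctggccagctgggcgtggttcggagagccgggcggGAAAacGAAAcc
BST2: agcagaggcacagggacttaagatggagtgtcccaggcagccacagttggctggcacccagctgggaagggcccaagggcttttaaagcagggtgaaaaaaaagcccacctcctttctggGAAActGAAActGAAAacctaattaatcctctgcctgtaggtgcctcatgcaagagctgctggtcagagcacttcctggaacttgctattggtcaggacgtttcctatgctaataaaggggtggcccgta

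IFI6 held 3 matches, and OAS3 and BST2 2 each, those of BST2 overlapping. Searched on both strands over 300 bases, the motif was found in 22 of the 32 promoters of tested interferon-stimulated genes (68.8%), in 8 of 15 of the MHC class I genes (53.3%) and in 300 of 11385 promoters of all tested genes (2.64%). A match is a sequence and not a measured binding site.

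The transcription factors of the same list were lower as well. STAT2 was at 67, 67.9, 71 and 66.5 CPM in WT and 50.4, 49.1, 48.3 and 46 CPM in the labelled line (log2 fold change -0.51, SE 0.035, adjusted p = 6.22e-14 from edgeR's test), while ΔDNMT3A and DNMT3A1 had 67.8 and 76.8 CPM. STAT2 lies in a stretch of chromosome 12, from HOXC12 to NDUFA4L2, whose 81 genes had a median of -0.27. IRF7 (-1.31), IRF9 (-1.36) and IRF1 (-0.48) fell. IRF7 lies in a stretch of chromosome 11, from BET1L to CTR9, whose 133 genes had a median of -0.339. Only IFITM2 (1.69) and IFIT2 (0.95) of the list rose, both from below 1 CPM in WT. IFITM genes are near-identical, so their counts are uncertain. Among 33 genes of interferon receptors and the JAK-STAT pathway, 12 rose and 14 fell, with a median of -0.10 and a higher sum in the labelled line (1749 to 1776 CPM in WT, 1934 to 2002 CPM). The receptor genes IFNAR1 (-0.50), IFNGR2 (-0.27) and IL22RA1 (-1.84, 20.0 ± 1.1 to 5.64 ± 0.576 CPM), the receptor of interleukin 22 on epithelium, fell, as did the repressor IRF2 (-1.02). The interleukin 6 receptor gene IL6R (1.98) and the feedback inhibitor SOCS2 (1.1) rose, and so did IL6ST (0.29), the shared signalling chain. IL6R was higher still in ΔDNMT3A, at 16.9 CPM against 5.89 in the labelled line.

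MHC class I presentation was lower too. The pathway cuts proteins in the immunoproteasome, carries peptides through TAP, trims them by ERAP enzymes and loads them on HLA with tapasin and B2M. Of 19 genes tested, 17 fell and 1 rose, with a median log2 fold change of -0.78, and 14 lay below all 11 other libraries. PSMB8, a catalytic subunit of the immunoproteasome, was at 2.0, 2.28, 3.29 and 2.47 CPM in WT and 0, 0, 0.106 and 0.13 CPM in the labelled line. It had 3.02 CPM in ΔDNMT3A, and its log2 fold change against WT was -5.18 (SE 0.647, adjusted p = 9.83e-14 from edgeR's test). TAP1 fell from 4.59 ± 0.186 to 0.589 ± 0.286 CPM (-3.02) and TAP2 from 6.76 ± 0.625 to 1.2 ± 0.249 CPM (-2.5). The loading factors TAPBP (-1.6) and CALR (-1.12), the activator PSME1 (-1.22) and ERAP2 (-1.24) fell as well. Among the presenting molecules, HLA-B (-1.33), HLA-C (-0.55), HLA-E (-0.43) and B2M (-0.42) fell. HLA-B and HLA-C lie in a stretch of chromosome 6, from TUBB to NELFE, whose 51 genes had a median of -0.289. B2M lies in a higher stretch of chromosome 15, from PDIA3 to MYO1E, whose 95 genes had 0.306. HLA counts depend on the alleles of the cells and are uncertain. CANX, a chaperone of the endoplasmic reticulum on the long arm of chromosome 5, rose (0.38, neighbouring genes 0.47). NLRC5, the activator of class I genes, was at 0.602 ± 0.132 CPM in WT, 0.404 ± 0.113 CPM in the labelled line and 2.0 ± 0.103 CPM in ΔDNMT3A, and did not pass against WT (-0.58, adjusted p = 0.0778), but did without DNMT3A2 replicate 4 (-0.752, adjusted p = 0.0494, edgeR).

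**Figure D3:**
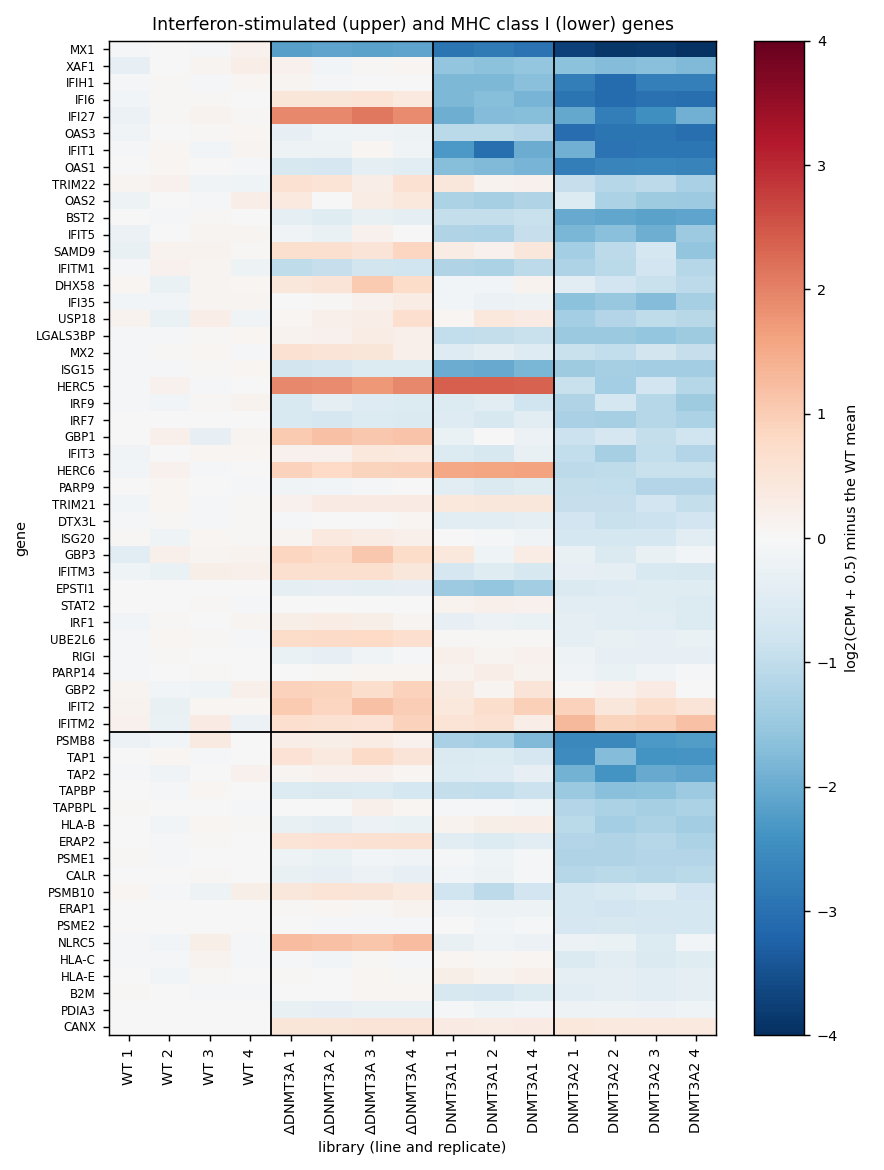
Heat map of log2(CPM + 0.5) minus the WT mean (colour, limited to ±4) for tested interferon-stimulated genes (upper block of the y axis) and MHC class I genes (lower block) in each Caco-2 library (x axis). The columns labelled DNMT3A2 are blue for nearly all genes, while ΔDNMT3A and DNMT3A1 have genes on both sides.

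In TNF and NF-κB signalling, which drives inflammatory genes, 12 of 40 tested genes rose and 20 fell (median -0.08). The receptor gene TNFRSF1B fell from 8.23 ± 0.274 to 1.73 ± 0.225 CPM (-2.26) and the epithelial cytokine gene IL18 from 20.1 ± 1.02 to 7.23 ± 0.391 CPM (-1.49), although ΔDNMT3A had 51.8 ± 1.93 CPM of IL18. The chemokine gene CCL2 (180 and 6 counts) was switched off. TRAF5 (0.95), an adaptor of TNF receptors, and CYLD (0.91), a deubiquitinase that restrains the pathway, rose. RELA (-0.66) fell, and NFKB2 (0.51) rose.

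Most brush border genes tested were lower. The hydrolases are anchored enzymes that split sugars and peptides at the microvilli, whose actin core is built by villin, espin and myosins and whose tips are joined by protocadherins. Of 14 hydrolase genes tested, 8 fell and 2 rose (median -0.96), and of 19 scaffold genes 17 fell and 1 rose (median -0.51). In all, 7 of the hydrolase and 13 of the scaffold genes lay below all 11 other libraries. The summed level went the other way for the hydrolases, from 598 to 605 CPM in WT and from 616 to 652 CPM in the labelled line, DPP4 being the most abundant, and for the scaffold it was lower, 2383 to 2449 and 1861 to 1896 CPM. LCT, the lactase gene, was at 9.05, 8.37, 9.95 and 11 CPM in WT and 1.03, 0.508, 0.814 and 0.746 CPM in the labelled line. Its groups did not overlap (-3.64, SE 0.183, adjusted p = 5.41e-20 from edgeR's test), and ΔDNMT3A had 26.2 ± 0.708 CPM. SI, sucrase-isomaltase, fell from 16.4 ± 0.632 to 2.83 ± 0.26 CPM (-2.56) and had 55.6 ± 8.53 CPM in DNMT3A1. The peptidase ANPEP (-1.57) and the phosphatase ALPI (-0.82) fell, while DPP4 rose from 378 ± 2.41 to 439.5 ± 16.2 CPM (0.21) and MEP1A rose (0.44). DPP4 was higher in both other engineered lines, with 544 and 1325 CPM.

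CDHR5, a protocadherin of the microvillus tip, was at 41.6, 41.1, 45.4 and 44.8 CPM in WT and 7.9, 6.14, 6.51 and 7.65 CPM in the labelled line. WT, ΔDNMT3A (40.9 CPM) and DNMT3A1 (46.2 CPM) lay close together, and the log2 fold change against WT, the lowest of the scaffold genes tested, was -2.62 (SE 0.067, adjusted p = 3.54e-25 from edgeR's test). Its partner USH1C, harmonin, fell from 179 ± 3.3 to 61.9 ± 1.25 CPM (-1.54), with 177 ± 2.24 CPM in ΔDNMT3A and 181 ± 1.63 CPM in DNMT3A1. Both genes lie on the short arm of chromosome 11, where neighbouring genes had medians of -0.37 and -0.16. ANKS4B, another component of that complex, was the member that rose (0.86). ESPN (-1.68), MYO1A (-1.46) and EPS8 (-1.17), which bind or cap actin, fell, and VIL1, villin, fell by little (-0.22).

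Absorption genes followed in part. Of 25 genes of lipid absorption, 15 fell and 5 rose (median -0.50). MTTP, which loads lipid on nascent chylomicrons, fell from 2.3 ± 0.169 to 0.306 ± 0.059 CPM (-2.89), the enzymes DGAT1 (-1.37) and DGAT2 (-1.15) of triglyceride synthesis fell, and APOA1 fell from 267 ± 19.2 to 129 ± 8.72 CPM (-1.07). APOB, the core protein of chylomicrons, was at 649 ± 51.6 and 654 ± 25.4 CPM and did not pass (-0.004). APOA5 (1.62) and the bile acid binder FABP6 (0.76) rose. Of 34 transporters, 20 fell and 12 rose (median -0.35), while their summed level was higher in the labelled line (7463 to 7672 CPM in WT, 7781 to 8024 CPM). SLC5A1, which takes up glucose with sodium, fell from 1.71 ± 0.30 to 0.446 ± 0.0823 CPM (-1.94) where ΔDNMT3A had 12.1 ± 0.96 CPM, and the carbonic anhydrase CA2 (-1.53) and the chloride channel CFTR (-1.01, 203 ± 4.52 to 102 ± 3.37 CPM) fell. The glucose carrier SLC2A3 (0.41), the cystine carrier SLC7A11 (1.12) and the calcium channel TRPV6 (1.15) rose.

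The transcription factors of intestinal identity moved less uniformly, with 15 of 29 lower and 9 higher (median -0.21). HNF4A, a main regulator of enterocyte genes, fell from 427 ± 19.1 to 325 ± 6.9 CPM (-0.41), with 322 ± 15.6 CPM in DNMT3A1, and CDX2 (-0.27) fell too. HNF4A lies on chromosome 20, where 71.3% of the tested genes fell (median -0.357). GATA5 (-3.13) and CREB3L3 (-2.6), an activator of lipid genes, had the lowest values. The lipid sensors PPARG (20.6 ± 0.0975 to 6.56 ± 0.18 CPM, -1.67) and PPARA (24.7 ± 0.666 to 5.5 ± 0.302 CPM, -2.19) fell, the latter among chromosome 22 neighbours with a median of -1.5. KLF4, a factor of differentiated surface cells, was at 2.3, 2.9, 3.19 and 2.86 CPM in WT and 10.8, 12.4, 11.8 and 10.7 CPM in the labelled line. The rise had a log2 fold change of 2.0 (SE 0.097, adjusted p = 5.05e-18 from edgeR's test), and ΔDNMT3A and DNMT3A1 had 6.57 and 5.99 CPM. MAF (0.88), of villus enterocytes, and SOX9 (0.35), of progenitors, rose. Of 11 mucin and goblet cell genes tested, 3 rose and 4 fell (median -0.17). AGR3 (2.08) and TFF1 (1.29) rose, ZG16 (-0.82) and TFF3 (-0.34) fell, and AGR2, at 153 and 151 CPM, did not pass, but did with the GC trend removed (-0.108).

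Wnt pathway genes and targets were more often higher. Wnt ligands stabilise β-catenin, which with TCF factors turns on genes of crypt stem cells and of feedback inhibition. Caco-2 cells carry a truncated APC and so a constantly active pathway. Of 52 genes tested, 30 rose and 14 fell (median 0.24), and 21 lay above all 11 other libraries, where 15.6% of all genes did. Among the ligands and their export, WNT5A, of the noncanonical branch, was at 6.09, 6.38, 5.14 and 5.38 CPM in WT and 58.6, 58, 57.5 and 55.2 CPM in the labelled line. The log2 fold change was 3.31 (SE 0.062, adjusted p = 1.05e-28 from edgeR's test), with 20.0 ± 1.47 CPM in ΔDNMT3A and 15.1 ± 1.36 CPM in DNMT3A1, both also above WT. WLS, the carrier that brings Wnt proteins to the surface, rose from 13.4 ± 0.638 to 65.7 ± 2.2 CPM (2.28) and WNT6 rose (1.73). CTNNB1, β-catenin, was at 219, 228, 216 and 224 CPM in WT and 309, 308, 310.1 and 325 CPM in the labelled line (0.48), above the 177 ± 7.86 CPM of ΔDNMT3A and the 219.5 ± 3.76 CPM of DNMT3A1. Its chromosome 3 neighbours had a median of -0.28.

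AXIN2, which feeds back on the pathway, was at 39.3, 37.4, 38 and 40.2 CPM in WT and 92.4, 94.4, 93.9 and 92.8 CPM in the labelled line. It lay above all other libraries (1.25, SE 0.031, adjusted p = 1.51e-24 from edgeR's test), with 47.2 CPM in ΔDNMT3A and 36.7 CPM in DNMT3A1. The inhibitors NKD1 (0.58), RNF43 (0.63), SP5 (0.77) and DKK1 (0.51) rose, as did the targets EPHB2 (0.71), EPHB3 (1.2), ASCL2 (0.56), MYC (0.26) and CD44 (1.72). CD44, the hyaluronan receptor, was at 114 CPM in DNMT3A1 and 118 CPM in the labelled line. In contrast, the stem cell receptor LGR5 fell from 34.7 ± 2.12 to 18.4 ± 0.845 CPM (-0.92), with 6.54 ± 0.359 CPM in ΔDNMT3A and 18.6 ± 1.12 in DNMT3A1, LGR4 (-0.67) fell, and the secreted inhibitor SFRP5 had the lowest value (-2.16).

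BMP signalling, through SMAD1, SMAD5 and SMAD9, opposes Wnt along the crypt. Of 24 genes tested, 15 rose and 7 fell (median 0.22). SMAD9 was at 0.329, 0.326, 0.223 and 0.18 CPM in WT and 4.03, 3.78, 4.39 and 4.28 CPM in the labelled line, while SMAD1 went from 5.71, 7.98, 7.53 and 6.02 CPM to 0.435, 0.138, 0.46 and 0.259 CPM. These paralogues thus moved in opposite directions, with log2 fold changes of 3.96 (SE 0.254, adjusted p = 1.43e-17) and -4.35 (SE 0.293, adjusted p = 3.28e-18, edgeR's test). SMAD1 was low in ΔDNMT3A (0.964 ± 0.147 CPM) and DNMT3A1 (1.5 ± 0.27 CPM) too, where SMAD9 had 0.259 ± 0.093 and 0.586 ± 0.11 CPM. The decoy receptor BAMBI rose from 113 ± 1.38 to 329.6 ± 12.1 CPM (1.54), the target ID3 (1.43) and the ligand BMP4 (0.77) rose, and GDF11 fell (-1.0). BAMBI and ID3 lie in higher stretches of chromosomes 10 and 1, with medians of 0.332 and 0.282. GDF11 lies in the lower stretch of chromosome 12 from HOXC12 to NDUFA4L2 (-0.27). In the Notch pathway, by which neighbouring cells choose absorptive or secretory fates, 12 of 26 genes rose and 5 fell (median 0.12). Their summed level was lower in the labelled line (981 to 1020 CPM in WT, 939.6 to 957 CPM), and 12 of the 26 had separate ranges, where 62.2% of all genes tested did. DLL1, a ligand of secretory progenitors, rose from 2.21 ± 0.374 to 11.4 ± 0.263 CPM (2.33), with 3.04 and 2.56 CPM in ΔDNMT3A and DNMT3A1. DLL4 (0.82) rose, POFUT1 (-0.59) and MFNG (-0.57), which modify Notch with sugars, fell, and the target HES1 did not pass (-0.05). POFUT1 lies on chromosome 20, whose tested genes had a median of -0.357. MFNG lost the call with the GC trend removed (-0.419, adjusted p = 0.0623) and without DNMT3A2 replicate 1 (-0.395) or WT replicate 1 (-0.398), and HES1 gained one without WT replicate 4 (-0.088, adjusted p = 0.0256), all from edgeR's test. Of 9 EGF family genes, 4 rose and 5 fell, with a higher sum in the labelled line (853.5 to 866 CPM in WT, 992 to 1017 CPM). The ligands AREG (179 ± 4.41 to 329.7 ± 5.92 CPM, 0.87) and EREG (0.90) and the inhibitor ERRFI1 (0.94) rose, and the receptors ERBB2 (-1.04) and ERBB3 (-0.51) fell while EGFR rose (0.41).

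HOX genes, which set position along the body axis, rose widely. Of 29 tested, 20 rose and 2 fell (median 0.80), and 8 lay above all 11 other libraries. Most were at low levels. HOXA13, the hindgut member, was at 12.2, 13.8, 12.2 and 12.2 CPM in WT and 36.5, 35.4, 38.2 and 35.5 CPM in the labelled line. It was also higher than WT in ΔDNMT3A (22.1 ± 1.08 CPM) and DNMT3A1 (21 ± 0.446 CPM), and its log2 fold change in the labelled line was 1.52 (SE 0.052, adjusted p = 2.48e-21 from edgeR's test). HOXC12 (3.19) and HOXA11 (2.5) had the highest values, HOXB7 rose by 0.29, and the anterior genes HOXA3 (-0.36) and HOXB3 (-0.17) fell, of which HOXB3 lost the call under DESeq2 (adjusted p = 0.109), with the GC trend removed (-0.132) and without DNMT3A2 replicate 1 or 4 or WT replicate 2, 3 or 4 (-0.168 to -0.139). Against WT, ΔDNMT3A had 19 of 30 tested HOX genes higher and 1 lower, and DNMT3A1 20 higher and 5 lower of 30. Both share the WT libraries with the labelled line. The shares over all genes are not given for these comparisons, so these counts only describe the list.

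Cell junctions changed by member and not as a group. Of 28 tight junction genes, 11 rose and 15 fell (median -0.18), and of 21 genes of desmosomes and cadherins 8 rose and 9 fell (median 0.02). CLDN6, an embryonic claudin, was at 36.7, 34.6, 38.7 and 38.7 CPM in WT and 2.33, 2.54, 2.51 and 2.46 CPM in the labelled line. With 0.61 ± 0.277 CPM in ΔDNMT3A and 0.0579 ± 0.0737 CPM in DNMT3A1, the labelled line was the highest of the engineered lines, and still far below WT (-3.93, SE 0.088, adjusted p = 2.96e-28 from edgeR's test). JAM3, an adhesion molecule with 204 counts in WT, had 0 counts in the labelled line and so was at least 54.9-fold lower. CLDN2, which forms a pore for cations, fell from 34.3 ± 1.22 to 10.6 ± 0.572 CPM (-1.71) where ΔDNMT3A had 55.9 ± 1.95 CPM, and the barrier claudin CLDN1 fell (-1.21). TJP1, the ZO-1 scaffold, rose from 195 ± 2.52 to 323 ± 4.1 CPM (0.71, chromosome 15 neighbours 0.38), CLDN23 rose (0.48), and PARD6B, of the polarity complex, fell (-0.18).

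DSC3, a desmosomal cadherin, was at 15.9, 16.7, 13.3 and 15.1 CPM in WT and 0.0395, 0.185, 0.319 and 0.259 CPM in the labelled line (-6.19, SE 0.340, adjusted p = 9.86e-24 from edgeR's test), with 0.0509 and 0.342 CPM in ΔDNMT3A and DNMT3A1. It was thus low in all 3 engineered lines. EVPL, envoplakin, fell (-3.91), while the plaque gene DSP rose from 575 ± 22 to 849 ± 22.6 CPM (0.55) and PERP rose (0.32). CDH1, E-cadherin, was at 725 ± 12.3 and 745 ± 13 CPM and did not pass (0.03). Of 9 keratin genes tested, 2 rose and 5 fell (median -0.32), KRT23 and KRT10 (0.45) being higher and KRT4 (-1.75), KRT15 (-1.04) and KRT8 among the lower.

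Genes of the extracellular matrix fell more often than they rose, with 22 of 35 lower and 8 higher (median -0.25), while their summed level, to which FN1 adds most, was higher in the labelled line (13950 to 14760 CPM in WT, 15470 to 16030 CPM). COL5A2, a fibrillar collagen, was at 699.5, 687, 696 and 699 CPM in WT and 154, 161, 153 and 158 CPM in the labelled line. Its groups did not overlap (-2.17, SE 0.024, adjusted p = 3.42e-33 from edgeR's test), with 354 and 455 CPM in ΔDNMT3A and DNMT3A1. TNC (-1.73) fell as well. The 6 collagen IV chains of basement membranes are coded as head-to-head gene pairs that share a promoter, and the pairs differed. COL4A1 (0.47) and COL4A2 (1.29) rose, COL4A3 (2.87) and COL4A4 (2.02, 0.795 ± 0.228 to 3.33 ± 0.314 CPM) rose from low levels, and COL4A5 (-1.13) and COL4A6 (-1.35) fell. COL4A5 was at 85.2, 84.3, 83.3 and 91.2 CPM in WT and 39.3, 39.2, 40.9 and 39.7 CPM in the labelled line, against 5.13 ± 0.487 CPM in ΔDNMT3A and 0.576 ± 0.014 CPM in DNMT3A1. For COL4A6 the means were 50.4, 19.9, 2.6 and 0.159 CPM in the same order. For this pair, the labelled line lay nearer to WT than either other engineered line.

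Among matrix proteases and their inhibitors, 7 of 20 rose and 9 fell (median -0.06). The inhibitor TIMP1 fell from 15.3 ± 1.34 to 2.14 ± 0.164 CPM (-2.86), with 3.19 and 2.1 CPM in ΔDNMT3A and DNMT3A1, and the urokinase gene PLAU fell (-1.88). MMP1, the interstitial collagenase, rose from 6.19 ± 0.543 to 28.5 ± 2.81 CPM (2.19), below ΔDNMT3A (67.8 ± 2.33 CPM) and DNMT3A1 (114 ± 2.43 CPM), and MMP15 rose (0.87). ST14, the matriptase of epithelia, fell by little (-0.10) but was at 0.063 with the GC trend removed. Of 14 integrin genes all passed, 8 higher and 6 lower (median 0.16). ITGB8 (1.69) and ITGA9 (0.60) had the highest values among those of at least 1 CPM, ITGA7 (-1.64) and ITGB4 (-1.14), the hemidesmosome chain, the lowest, and ITGB1 was at 0.11, short of the threshold with the GC trend removed (0.036). Of 22 S100 and annexin genes, which bind calcium, 11 rose and 8 fell (median 0.16). ANXA1 rose from 4.29 ± 0.375 to 20.9 ± 1.31 CPM (2.26), between DNMT3A1 (18.2 ± 0.22 CPM) and ΔDNMT3A (22.3 ± 1.36 CPM) in mean level, S100P rose (1.71), S100A1 (-1.82) and S100A13 (-0.85) fell, and ANXA2 rose by 0.15.

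Cholesterol synthesis, which SREBF2 switches on when sterols are short, was lower for 25 of 28 genes and higher for 1 (median -0.50). Beside it, ΔDNMT3A against WT had 23 of 28 lower and 2 higher, and DNMT3A1 against WT 21 lower and 5 higher. For these comparisons the shares over all genes are not given, and the counts cannot be set against them. MVK, mevalonate kinase, was at 43.6, 43.4, 47.6 and 44.9 CPM in WT and 20.1, 17.9, 18.4 and 18.7 CPM in the labelled line. The log2 fold change was -1.27 (SE 0.047, adjusted p = 1.36e-20 from edgeR's test), and the other engineered lines lay between, at 32 and 27 CPM. NSDHL (-1.59), on the X stretch described below with neighbours at -0.99, and TM7SF2 (-1.28), a sterol reductase gene, had the lowest values of the list together with MVK. MVK lies in a stretch of chromosome 12, from CORO1C to MMP17, whose 187 genes had a median of -0.313. TM7SF2 lies in one of chromosome 11, from SLC22A9 to ZNRD2, whose 75 genes had -0.298. INSIG1, which holds SREBF2 back, was the one that rose (0.16).

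In drug metabolism, 13 of 44 genes rose and 18 fell (median -0.01). ABCB1, the efflux pump P-glycoprotein, was at 414, 407, 419.9 and 420.3 CPM in WT and 63.1, 61.4, 61.5 and 66.5 CPM in the labelled line. The ranges lay far apart (-2.73, SE 0.027, adjusted p = 1.49e-34 from edgeR's test), with 465 ± 8.58 CPM in ΔDNMT3A and 252 ± 16.1 CPM in DNMT3A1. ABCB1 lies on chromosome 7 among neighbours with a median of -0.45. The sulfotransferase SULT2A1 fell (-2.81), while CYP1B1 (3.53), an oxidase of steroids and pollutants, SULT1C4 (2.61) and the glutathione transferase GSTP1 (736 ± 10.2 to 1289 ± 33.4 CPM, 0.79) rose. Among 33 antioxidant genes of the NRF2 response, 21 rose and 11 fell (median 0.21), and 15 lay above all 11 other libraries. AKR1C2, an aldo-keto reductase, was at 18.9, 16.1, 19.8 and 17.9 CPM in WT and 148, 148, 148 and 152 CPM in the labelled line (3.02, SE 0.04, adjusted p = 6.99e-32 from edgeR's test), and AKR1C1 rose as well (2.23). These paralogues are near-identical, so the split of reads between them is uncertain. NQO1 (0.89), GCLC (0.88), HMOX1 (0.99) and FTL (0.25), of ferritin, rose, and AKR1B10 (-1.04) and AKR1B1 (-0.82) fell.

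Of 38 acute-phase, complement and coagulation genes, typical of liver and present in Caco-2, 14 rose and 21 fell (median -0.39). The fibrinogen genes FGA (259 ± 11.1 to 54.7 ± 3.67 CPM, -2.26), FGB (-1.93) and FGG (-2.05), which neighbour each other on chromosome 4, fell together, with 204 ± 21.8 and 495 ± 60.9 CPM of FGA in ΔDNMT3A and DNMT3A1. ITIH2, of a hyaluronan-binding inhibitor, rose from 3.58 ± 0.21 to 32.2 ± 0.902 CPM (3.15) and ALB, albumin, from 7.83 ± 0.806 to 23.6 ± 1.69 CPM (1.58), both below DNMT3A1 (92 and 49.3 CPM). CD46, a complement regulator, fell by little (-0.09). Of 21 protein kinase A genes, 6 rose and 10 fell (median -0.13; sums of 1187 to 1199 CPM in WT and 1318 to 1335 CPM). PRKACB, a catalytic subunit, rose from 0.897 ± 0.0833 to 9.87 ± 0.892 CPM (3.45) and the cAMP phosphodiesterase PDE4D rose (1.35), while ADCY6 (-0.53) and the anchor AKAP1 (-0.37) fell.

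Germline genes, many of which DNA methylation keeps silent in body cells, were mostly not expressed. Of 43 listed, 29 were too low to test, and of the 14 tested 5 rose and 8 fell (median -0.54). Besides SOHLH1, SMC1B, a cohesin subunit of meiosis, fell from 5.68 ± 0.691 to 0.145 ± 0.0679 CPM (-5.29), in the stretch of chromosome 22 described below (neighbours -1.5), with 4.76 ± 0.424 and 8.97 ± 0.288 CPM in ΔDNMT3A and DNMT3A1. HORMAD2, of the meiotic chromosome axis, rose from 0.185 ± 0.0453 to 1.99 ± 0.145 CPM (3.41), TEX19 rose (1.43) and SYCP2 fell (-0.29). Of 18 imprinted genes tested, which carry methylation from 1 parent, 6 rose and 11 fell (median -0.41). L3MBTL1, on chromosome 20, was at 3.71, 3.26, 3.22 and 3.73 CPM in WT and 0.079, 0.369, 0.0354 and 0.13 CPM in the labelled line. The other lines kept it, with 2.82 ± 0.261 CPM in ΔDNMT3A and 4.72 ± 0.783 CPM in DNMT3A1 (-4.6 against WT, SE 0.418, adjusted p = 1.1e-15 from edgeR's test). ZDBF2 (-2.93), GNAS (-0.47) and PEG10 (639 ± 15.9 to 263 ± 8.16 CPM, -1.29) fell, and IGF2 (299.6 ± 15.3 to 466 ± 35.9 CPM, 0.62) and PHLDA2 (0.94) rose. GNAS and SYCP2, like L3MBTL1, lie on chromosome 20, whose tested genes had a median of -0.357. Parental alleles cannot be told apart in gene counts.

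DNA replication and cell cycle genes were nearly balanced, with 23 of 52 higher and 20 lower (median 0.000). The licensing factors CDT1 (0.43) and MCM5 (0.37) rose, the inhibitor CDKN2C fell from 3.21 ± 0.359 to 0.826 ± 0.237 CPM (-1.94), GINS1, on chromosome 20 with neighbours at -0.59, fell (-1.02), and TOP2A rose by 0.09 but lost the call with the GC trend removed (0.02). MKI67, the proliferation marker, fell from 175 ± 9.25 to 135 ± 3.02 CPM (-0.39). CDT1 ends a higher stretch of chromosome 16, which begins at DUS2 and whose 184 genes had a median of 0.321.

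Part of the differences followed position on the chromosomes. In windows of 50 consecutive tested genes, the median log2 fold change was at least 0.3 in 576 of 15197 windows and at most -0.3 in 1129. These 1705 windows became 2782 with DESeq2's fold changes, 5334 without the filter on low counts and 1058 in windows of 100 genes. Merged, these windows formed 38 stretches (15 higher, 23 lower) that held 3929 of the tested genes. Neighbours are given above for some genes only, and other genes named may lie in these stretches too. These values are descriptions, and copy number was not measured in these libraries. Of the 6 stretches with the largest absolute medians, chosen after their values were seen, the lowest was at the end of the long arm of chromosome X, from MBNL3 to WASH6P. Its 99 genes had a median of -0.875 (75 fell, 13 rose), while the same genes had -0.035 in ΔDNMT3A and -0.055 in DNMT3A1 against WT. It holds NSDHL. At the end of chromosome 22, 101 genes from SNU13 to RABL2B had a median of -0.364, and the lowest window among them had -1.537. On chromosome 20, 316 genes from C20orf96 to SLC2A10 had a median of -0.419, with -0.202 in ΔDNMT3A and -0.27 in DNMT3A1, and 238 of them fell. On the short arm of chromosome 3, 157 genes had -0.362, beside -0.338 and -0.432 in the other 2 lines. The highest stretches lay on chromosome 5. On its short arm 126 genes had a median of 0.389, with -0.054 and -0.316 in ΔDNMT3A and DNMT3A1, and at the end of its long arm 160 genes, among them NPM1, RACK1 and CANX, had 0.383, with 0.301 and 0.178. For MX1, LCT and WNT5A, picked after their values were seen, the 50 neighbours had medians of -0.10, -0.01 and -0.08. MX1 nevertheless lies within a lower stretch of chromosome 21, from DONSON to PRMT2, whose 112 genes had a median of -0.311.

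**Figure D4:**
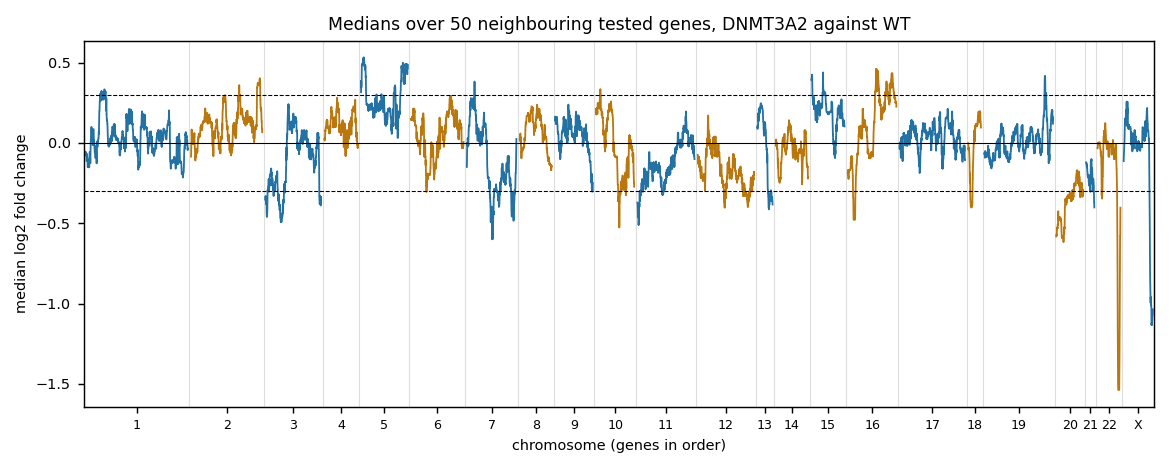
Median log2 fold change of the labelled line against WT over windows of 50 neighbouring tested genes (y axis), with genes in chromosome order (x axis, alternating colours). Dashed lines mark ±0.3, and the ends of chromosomes 22 and X drop to -1.537 and -1.133.

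The labels were also checked against markers. The colon and enterocyte identity genes were all measured, from 0.529 CPM (LGALS4) to 2949 CPM (KRT8) in the labelled line, and of these 12, 8 fell and 1 rose (median -0.25); EPCAM was at 740.4 and 785 CPM. Their summed level was 10730 to 10980 CPM in WT and 9324 to 9628 CPM in the labelled line. Of 12 leukocyte markers, 9 were too low to test, PTPRC and CD3E among them, and LYZ (-2.93), CD74 (-1.27) and CD14 (-0.53) fell. In all, 6 of the 12 had 0 counts in all 8 libraries, and the summed level was 203 to 211 CPM in WT and 82.8 to 90.2 CPM in the labelled line. Of 12 markers of fibroblasts and endothelium, 6 were too low to test, 1 rose and 4 fell, with VIM at 12.4 and 23.2 CPM and sums of 69.4 to 75.5 and 55.9 to 59.1 CPM. Of 13 goblet, enteroendocrine and tuft cell markers, 8 were too low to test, 3 rose and 1 fell, with sums of 4.24 to 5.4 and 6.23 to 7.52 CPM. Stress genes rose in 6 and fell in 2 of 12, with JUN at 10.9 ± 0.649 and 30.6 ± 2.07 CPM (1.46) and sums of 674 to 717 and 701 to 730.1 CPM. The share of counts on mitochondrial genes was 0.61 to 0.71% in WT, 0.65 to 0.69% in ΔDNMT3A, 0.54 to 0.59% in DNMT3A1 and 0.46 to 0.54% in the labelled line. The part of these values in the differences above was not tested.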

How the data were processed

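Total RNA of Caco-2 lines was sequenced as stranded TruSeq libraries (HiSeq 3000). Per the study's methods and the submitters' processing notes, reads were trimmed with Trim Galore (version 0.4.4), aligned to GRCh38 with STAR (2.5.2b) and counted per Ensembl gene with featureCounts (1.5.2). The deposited values are raw counts, made by the authors with 1 file per library; per the file headers, fragments were counted on the reverse strand without multi-mapping reads, which lowers genes with near-identical copies.

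From these counts, genes were filtered (filterByExpr), scaled by TMM and tested with edgeR 4.0.16 in R 4.3.3 (quasi-likelihood F test, groups WT and DNMT3A2 alone, Benjamini-Hochberg adjusted p under 0.05). The test was also run on simulated data, in which, unlike in these data, few genes were changed. Symbols came from a gene table that matched 41445 of 58051 IDs. Promoter sequences are RefSeq's (GRCh38.p14). Depth, and the alternatives in the closing section (DESeq2 1.42.0, other scalings, filters, covariates and left-out libraries), limit the precision as given there. Both lanes of the flow cell hold 2 libraries of WT and 2 of DNMT3A2. Counting intervals (95%, exact) and floors of 3 counts cover counting error only.

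Genes were named by rank of log2 fold change, of CPM difference and of level within lists, and other members after their values were seen. The members and lists were chosen with earlier results of these data known. The 8 mouse samples and 1 DNMT3A1 library were not analysed here, and some genes that the rule names are not reported here.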

Additional observations from a re-analysis of the deposited data

Results flagged for a closer look

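The spread within each group of 4 libraries was looked at for the 268 genes named in the text, in WT and in the labelled line, 536 groups in all. In 36 of them, the highest or the lowest library lay apart from the other 3, with a gap above Dixon's critical value for the range of the group. This is 6.72% of the groups, and chance flags about 1 in 20. None of these libraries made the groups of a gene called higher or lower overlap, and the values are CPM.

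Replicate 1 of WT stood high for ANXA2 (1030), CEACAM18 (2.36), KRT4 (3.76), SHISA6 (0.0299). Replicate 2 of WT stood high for EREG (112), HOXA13 (13.8) and low for CD14 (19.9), ESPN (15.6), ITGA9 (32.5). Replicate 3 of WT stood high for HLA-C (89.4) and low for ANXA1 (3.73), BAMBI (110), DPP4 (374). Replicate 4 of WT stood high for NFIB (0.0257) and low for DNMT3B (148), HES1 (65.9), SOX9 (32.1).

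Replicate 1 of the labelled line stood high for ESPN (6.05), IFIT1 (2.49), OAS2 (0.553), RIGI (21.6) and low for GINS1 (34.8). Replicate 2 of the labelled line stood high for PPARG (6.83), TAP1 (1.02) and low for IFIH1 (0.784), MMP15 (44.7), TET1 (41.4). Replicate 3 of the labelled line stood high for JUN (33.6), SLC7A4 (0.0354) and low for HLA-E (44.6), HOXA11 (2.73). Replicate 4 of the labelled line stood high for AKR1C2 (152), APOA1 (142), CTNNB1 (325) and low for DIAPH2 (0.0648), SULT1C4 (5.28). For NFIB, SHISA6 and SLC7A4 the library apart held 1 count and the others 0. For IFIT1 and OAS2 replicate 1 of the labelled line was the highest of its group, and for TAP1 replicate 2 was, all 3 still below every WT library.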

How the results depend on the processing

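The count of genes past the threshold, 11234, ran from 10359 (at least 10 counts in all 8 libraries) to 11707 (no filter on low counts), with 10552 by DESeq2. It was 10900 to 11173 with each library left out in turn, of which 5410 to 5594 genes were higher and 5435 to 5579 lower. An absolute log2 fold change of at least 1 left 1818 genes, 720 higher and 1098 lower. The log2 fold change of DNMT3A stayed between -1.618 and -1.506, past the threshold in each of these fits. Windows at the limit numbered 1705, and 2782 with DESeq2's fold changes, 5334 without the filter and 1058 in windows of 100 genes. The median CG count of promoters of switched-off genes was 13 at a minimum mean of 0.5 CPM and 17.5 at 2 CPM, and that of switched-on genes was 8 at 0.5 CPM, while at 2 CPM no gene was switched on.

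Replicate numbers are shared by the labels of both lines, but libraries of the same number did not deviate together (correlations from -0.034 to 0.007 over 13658 genes). They also share a lane, and whether they share a culture or a preparation is not known. With the replicate block, 11144 genes passed, and 11025 with the GC trend removed as well.

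Of the 268 genes named, APC, EPCAM, HOXB3, ITGB1, MBD1, MFNG, SREBF2, TDG and TOP2A lost their call under at least 1 of the alternatives with all libraries, and AGR2, TET1, TET2 and ZBTB4 gained one. Leaving out 1 library ended the call of APC, HOXB3, MFNG and TDG and gave one to HES1, NLRC5 and TET2. ST14 turned to 0.063 with the GC trend removed, with and without the block. APOB, never past the threshold, turned to 0.011 with all Caco-2 lines in the fit and to between 0.001 and 0.027 without DNMT3A2 replicate 2, DNMT3A2 replicate 4, WT replicate 2 or WT replicate 4 (0.015, 0.001, 0.026 and 0.027), from a range of -0.051 to 0.027 over the left-out libraries. The cause of these changes was not tested. On simulated counts for the 16360 genes of this comparison, 95% of changes of 1 and 77% of changes of 0.5 (log2) were found, with 11 false calls. Only 100 genes were changed at each size, up and down alike, and the counts came from the model that the fit assumes. In the data 68.7% of genes passed, so the simulation gives no error rate for these calls.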

Other observations

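The remaining 10 genes switched off in the labelled line, chosen by the same rule on the counts of this contrast, were DDX60, MGAM2, HCN4, FGL1, ZNF470, ZFP92, FBXW10B, IGHV3-15, RIIAD1 and RHEX. DDX60, an antiviral helicase that interferon induces, had 196 counts in the WT libraries together and 9 in those of the labelled line, with 1.56 ± 0.162 CPM in ΔDNMT3A (SD, n = 4) and 0.119 ± 0.0674 CPM in DNMT3A1 (n = 3). MGAM2, a relative of the brush border enzyme maltase-glucoamylase, had 142 and 4 counts, although its mean in ΔDNMT3A (1.84 CPM) and DNMT3A1 (1.48 CPM) was above that of WT (1.07 CPM). HCN4, the pacemaker channel gene, had 228 and 8 counts, and FGL1, a secreted protein of the liver, 219 and 8.

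Among the zinc finger genes, ZNF470 had 241 and 5 counts, and ZFP92, within the X chromosome stretch that was lower in the labelled line, had 143 and 0, at least 38.5-fold lower against 3 counts over the group. FBXW10B (216 and 6 counts) was at most at 3 counts in every ΔDNMT3A library and at most at 1 in every DNMT3A1 library. IGHV3-15, an immunoglobulin segment, had 172 and 3 counts, RIIAD1 137 and 7, and RHEX 134 and 3. These values are descriptions of genes selected on them.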
